A study of Mus musculus with 25 samples.

Results

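RNA of mouse 2-cell embryos labelled sIVF (2 libraries) was compared with RNA of 2-cell embryos labelled IVF (2 libraries), over every gene locus with a mean of at least 1 FPKM across these 4 libraries. FPKM is the number of sequenced fragments of a transcript, scaled by its length and by the depth of the library. This rule kept 8299 loci of 8230 gene symbols, out of 24708 loci of 24257 symbols in each table. Both groups were embryos of the BDF1 hybrid strain collected at embryonic day 1.5, with polyA RNA as the molecule, and the labels give sIVF and IVF in the field for genotype with no other allele or treatment. A group labelled WT, of the same strain and age (2 libraries), shared the model's estimate of spread, and its values are given beside the others. IVF is the usual abbreviation of in vitro fertilisation, and the meaning of sIVF is not given in the labels. The series is titled for a stress response of early embryos mediated by Fzr1, which activates the anaphase-promoting complex to degrade cell cycle proteins, and its design text names embryos after IVF, embryos with more Fzr1 and fat tissue of offspring. The labels do not say that the libraries of a group came from separate pools of embryos, so a p-value measures the spread between these libraries, which may be technical.

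A mouse 2-cell embryo lives at first on RNA and protein stored in the egg. During this stage most of the stored RNA is cleared and the embryo's own genome is switched on, with an early burst of genes for ribosomes, RNA processing and chromatin. Egg histones and stored factors such as the subcortical maternal complex carry the embryo through its first divisions, and replication histone genes are transcribed in step with DNA synthesis.

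No gene passed the test between sIVF and IVF embryos, so all differences in what follows are given as values. By value, sIVF embryos had 3.19-fold more RNA of the actin gene Actb and 2.65-fold more of the acidic nuclear protein prothymosin alpha (Ptma). Their libraries stood above IVF for the m6A reader Ythdf2, the rRNA transcription factor Rrn3 and the translation factors Eif4a1 and Eif4e of the cap-binding complex. IVF embryos had 2.14-fold more Hypk, a partner of the NatA acetyltransferase, 2.37-fold more of the histone variant H2afj and more of many ribosomal protein, respiratory chain and replication histone RNAs. The water channel gene Aqp11 stood 6.14-fold higher in IVF embryos.

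The test was limma on log2(FPKM + 1), with p adjusted by Benjamini and Hochberg over all loci and a threshold of 0.05. It called 0 of 8299 loci (0%), and the smallest adjusted p, 0.0596, was shared by 15 loci. At an unadjusted p under 0.05 stood 998 loci (12%), of which 529 (6.37%) were higher and 469 (5.65%) lower in sIVF, while after upper-quartile scaling 425 were higher and 596 lower. Both sIVF libraries lay above both IVF libraries at 1796 loci (21.6%) and below both at 1747 (21.1%). Of these, 619 (7.46%) were higher and 836 (10.1%) lower by 1 or more on the log2 scale. The count of calls depended on the setting, and the cause was not tested. With a minimum mean of 5 FPKM, limma called 24 loci higher and 9 lower of 4690. Over the same 8299 loci it called 13 after quantile normalization, 9 with length trends removed and 1 after upper-quartile scaling.

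The median log2 fold change over all loci was -0.02, with quartiles of -0.56 and 0.49. The median standard error of a log2 fold change was 0.63 over all loci, 0.21 at loci of 100 FPKM or more and 0.77 below 5 FPKM. By the median difference the libraries of a group lay closer to each other than to the other group, and by correlation they did not in every pair. The median absolute log2 difference was 0.55 between the sIVF libraries and 0.51 between the IVF libraries, against 0.61 to 0.68 between a sIVF and an IVF library. Between a sIVF and a WT library it was 0.53 to 0.60. Pearson's r, taken over loci that cannot count as independent, was 0.866 between the sIVF libraries and 0.875 between the IVF libraries, against 0.835 to 0.867 between a sIVF and an IVF library. The bounds deposited with each value implied 4811237 and 5432820 fragments in the sIVF libraries, against 6377606 and 5146026 in the IVF libraries, and IVF replicate 1 also had the most loci above 0 (11860, against 10235 to 10703 in the other 3 libraries). Counting error alone, taken as 2 SD, came to 28.2% to 32.6% of a value of 1 FPKM at a typical locus. In these bulk samples fewer cells with an RNA and less of it per cell cannot be told apart, and FPKM is a share of the library, so a change in total RNA per embryo is not seen.

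**Figure D1:**
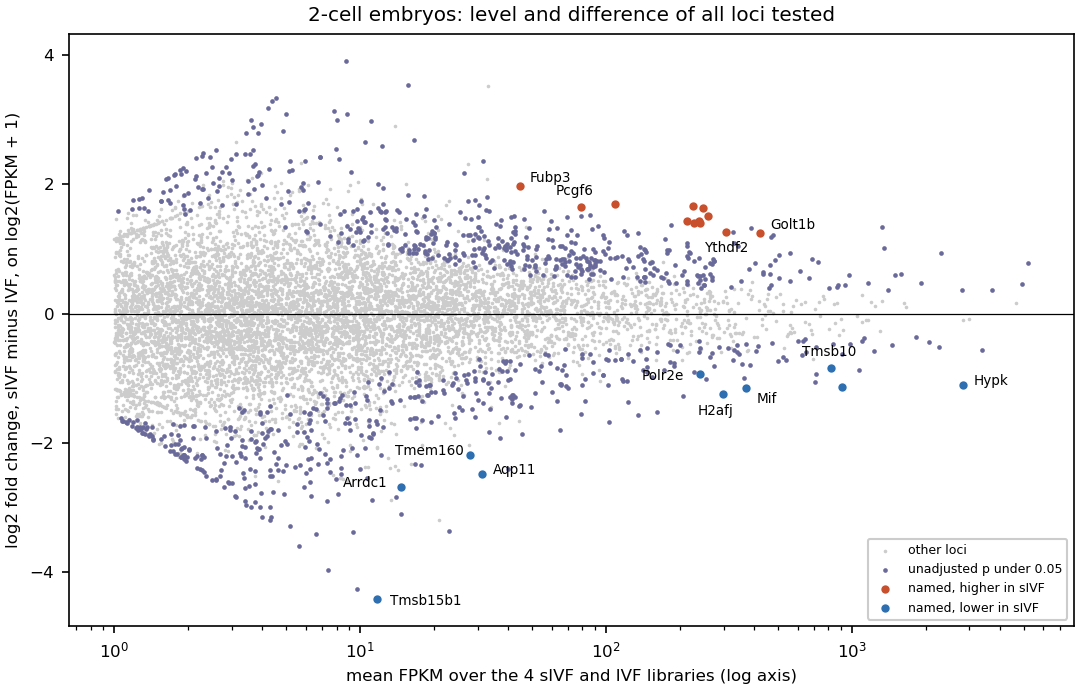
Mean FPKM over the sIVF and IVF libraries (x, log axis) against the log2 fold change of sIVF over IVF (y) for all 8299 loci, with the 998 loci at an unadjusted p under 0.05 in dark grey-blue and named genes of smallest p in red (12 higher in sIVF) and blue (10 lower in sIVF). The 12 red genes lie between 1.25 and 1.98 on the log2 scale, and the spread of the other loci widens toward low levels.

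Of the genes with the smallest p that stood higher in sIVF, the first was Actb, which encodes the cytoplasmic actin of nearly all cells. It stood at 351 and 337 FPKM in sIVF, against 96.0 and 119.7 FPKM in IVF, with 255 and 313 FPKM in WT. The sIVF libraries agreed closely and lay far above both IVF libraries (log2 fold change 1.67, SE 0.20, limma adjusted p = 0.0596). Ptma, a small acidic protein that binds histones, had 352 and 349 FPKM in sIVF, against 124.7 and 140.4 FPKM in IVF, with 321 and 319.6 FPKM in WT. Here the log2 fold change was 1.40 (SE 0.17, adjusted p = 0.0596), and the spread within each group was small against the gap between them. Genes of this set were named for a small p and no overlap, so such a gap was selected for and adds no evidence.

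Rrn3, the factor that recruits RNA polymerase I to ribosomal DNA, stood at 316 and 307 FPKM in sIVF, against 112 and 117 FPKM in IVF (log2 fold change 1.43, SE 0.18). WT lay between the groups at 177 and 188 FPKM. Taf1d, a subunit of the polymerase I selectivity factor, had 98.2 and 107 FPKM in sIVF, against 35.0 and 36.7 FPKM in IVF (log2 fold change 1.49, SE 0.23, adjusted p = 0.0669). Its locus overlaps those of other genes, whose reads may be shared. Both genes act at the start of rRNA synthesis. The rest of the ribosome assembly list did not follow them, as described further on.

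Other genes of the same rank spread over RNA binding, chromatin and the secretory pathway. Ythdf2, a reader that binds m6A-marked RNA and speeds its decay, had 426 and 442 FPKM in sIVF, against 162 and 199.6 FPKM in IVF (log2 fold change 1.27, SE 0.18). Pcgf6, a subunit of a variant Polycomb repressive complex 1, had 123 and 117 FPKM in sIVF, against 38.2 and 37.0 FPKM in IVF, and WT stood near IVF at 54.0 and 50.2 FPKM. Its log2 fold change was 1.65 (SE 0.23). Golt1b, a Golgi vesicle transport protein, had 625 and 559.6 FPKM in sIVF, against 269.9 and 228 FPKM in IVF. Dnajb9, an endoplasmic reticulum co-chaperone, had 350.0 and 312 FPKM in sIVF, against 115 and 136 FPKM in IVF. Both had no overlap between the groups, which the naming rule required, and their log2 fold changes were 1.25 (SE 0.18) and 1.40 (SE 0.19).

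Sephs2, which makes the selenium donor for selenoproteins, stood at 374 and 397 FPKM in sIVF, against 119 and 152 FPKM in IVF. Ptp4a1, a prenylated phosphatase, stood at 167 and 165 FPKM in sIVF, against 57.8 and 44.3 FPKM in IVF, and the predicted gene at the same place in the annotation was among the 15 loci of smallest adjusted p too. Fubp3, a single-strand nucleic acid binding protein, had the widest ratio of this set, 4.05, with 71.4 and 71.0 FPKM in sIVF, against 14.5 and 20.7 FPKM in IVF. Mier3, a putative chromatin co-repressor, had 357 and 338 FPKM in sIVF, against 112 and 145 FPKM in IVF. In Sephs2, Ptp4a1, Fubp3 and Mier3 the IVF libraries lay below both WT libraries as well. The same held at every other named gene of smallest p that was higher in sIVF.

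Insig1, which holds the SREBP sterol sensor in the endoplasmic reticulum, stood at 349 and 398 FPKM in sIVF, against 94.0 and 151 FPKM in IVF, with 388 and 483 FPKM in WT. Its log2 fold change was 1.64 (SE 0.25, adjusted p = 0.0669). It was the most abundant gene of its pathway here, and the rest of the sterol synthesis list gave no matching picture. Of 17 members measured, 1 was higher and 1 lower with p under 0.05 before adjustment, and the median log2 fold change was -0.10. Fdft1, which makes squalene, had 24.8 and 27.6 FPKM in sIVF, against 24.0 and 21.2 FPKM in IVF.

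Among genes lower in sIVF, Hypk had the smallest p of all loci. Hypk, a chaperone-like partner of the NatA complex that acetylates protein N-termini, had 1948 and 1656 FPKM in sIVF, against 3741 and 3969 FPKM in IVF, with 1618 and 1562 FPKM in WT. Its locus is chr2:121282824-121284176 in the mm9 build of the files. The log2 fold change was -1.10 (SE 0.12, adjusted p = 0.0596), and sIVF stood near WT while IVF stood above both. Of the 12 N-terminal acetyltransferase genes measured, Hypk and Naa38, a small subunit of NatC, were lower at an unadjusted p under 0.05 and none was higher. Naa38 had 119.97 and 102 FPKM in sIVF, against 156 and 171 FPKM in IVF, and the median of the list was 0.23.

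H2afj, a replacement form of histone H2A, had 176 and 177 FPKM in sIVF, against 436 and 402 FPKM in IVF, with 151 and 133 FPKM in WT (log2 fold change -1.24, SE 0.18, adjusted p = 0.0596). Mif, a cytokine and tautomerase, had 242 and 218 FPKM in sIVF, against 491 and 536 FPKM in IVF (log2 fold change -1.16, SE 0.17, adjusted p = 0.0619). In both of these the WT libraries, too, lay below both IVF libraries. Polr2e, a subunit shared by the 3 nuclear RNA polymerases, had 156 and 175 FPKM in sIVF, against 319 and 315 FPKM in IVF.

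Aqp11, an intracellular water channel, showed another order. It had 7.24 and 10.3 FPKM in sIVF, against 63.4 and 44.5 FPKM in IVF, and WT stood with IVF at 46.7 and 47.4 FPKM (log2 fold change -2.49, SE 0.34, adjusted p = 0.0596). Arrdc1, an arrestin-domain protein of membrane budding, had 1.94 and 4.73 FPKM in sIVF, against 31.2 and 20.6 FPKM in IVF, and 13.6 and 11.98 FPKM in WT. Tmem160, a mitochondrial membrane protein, had 9.95 and 8.96 FPKM in sIVF, against 47.1 and 45.7 FPKM in IVF, and 6.38 and 7.18 FPKM in WT. Thus WT stood with sIVF at Tmem160, with IVF at Aqp11 and between the groups at Arrdc1.

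The thymosins, small proteins that bind actin monomers, stood the other way from Actb. Tmsb10 had 599 and 575 FPKM in sIVF, against 1094 and 1019 FPKM in IVF (log2 fold change -0.85, SE 0.13, adjusted p = 0.0669). Tmsb15b1 was listed at 0 in both sIVF libraries, against 11.5 and 35.3 FPKM in IVF and 6.69 and 6.52 FPKM in WT, and its locus overlaps that of the related gene Tmsb15l.

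**Figure D2:**
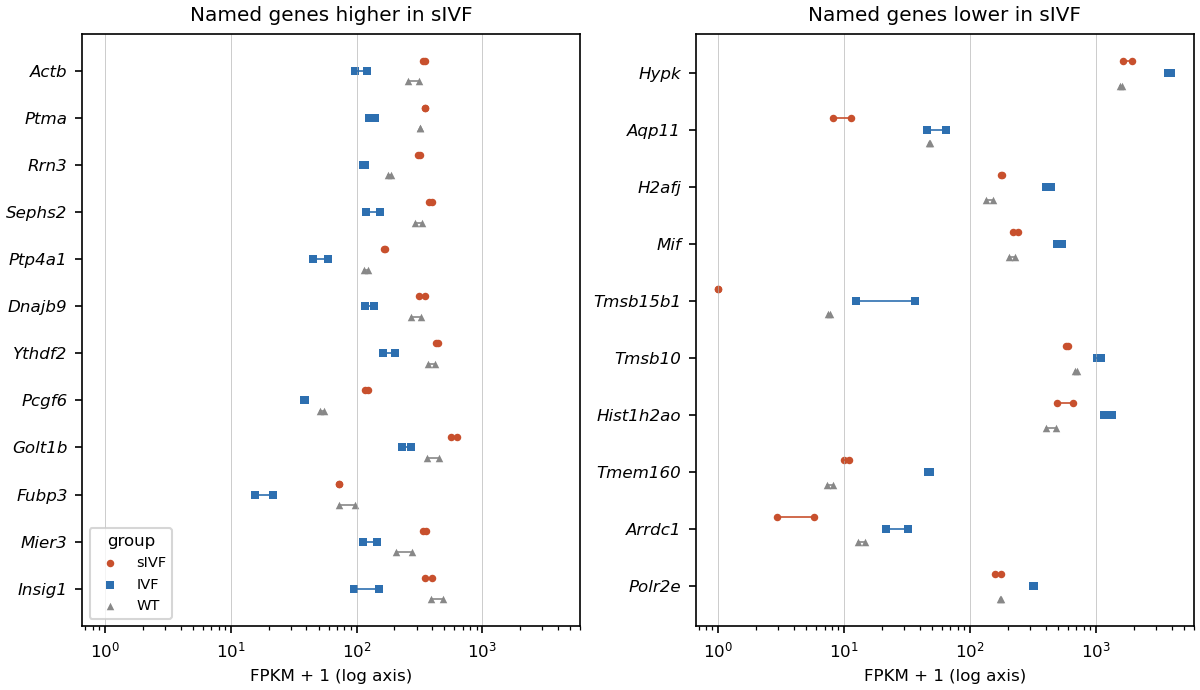
FPKM + 1 per library (x, log axis) of the 12 named genes of smallest p that were higher in sIVF (left) and 10 that were lower (right), with 2 libraries each for sIVF (circles), IVF (squares) and WT (triangles), joined by a line within a group. In every row the sIVF and IVF points do not overlap, which the naming rule required, and WT lies near sIVF for Hypk, Mif and Polr2e but near IVF for Aqp11 and Pcgf6.

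To set sequence beside these opposite differences, the 250 bases before the start site are shown for a pair of genes lower in sIVF (Hypk and Mif) and a pair higher (Ptma and Insig1). They come from RefSeq promoters in the GRCm38.p6 build, which is not the build of the files, and run 5′ to 3′ on the gene's strand. They span chr2:121456838-121457087 on the plus strand for Hypk, chr10:75860278-75860527 on the minus strand for Mif, chr1:86526307-86526556 on the plus strand for Ptma and chr5:28071162-28071411 on the plus strand for Insig1. Capitals mark matches on either strand to 6 motifs. One is the letters TATAAA of a core promoter box. The next, CCAAT, is bound by the factor NF-Y. The GC box, written GGGCGG here, is known as a site of Sp factors. Another is CCGGAAG, the core letters of an ETS factor site. The letters TGACGTCA form the full cAMP response element. The last is the sterol regulatory element of the LDL receptor gene, which SREBP factors bind, searched as an exact match.
Hypk: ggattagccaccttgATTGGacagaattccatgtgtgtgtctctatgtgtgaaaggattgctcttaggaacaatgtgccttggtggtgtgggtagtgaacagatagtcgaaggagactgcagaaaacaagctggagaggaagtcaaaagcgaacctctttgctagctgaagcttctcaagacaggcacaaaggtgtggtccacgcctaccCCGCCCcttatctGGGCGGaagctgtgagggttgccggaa
Mif: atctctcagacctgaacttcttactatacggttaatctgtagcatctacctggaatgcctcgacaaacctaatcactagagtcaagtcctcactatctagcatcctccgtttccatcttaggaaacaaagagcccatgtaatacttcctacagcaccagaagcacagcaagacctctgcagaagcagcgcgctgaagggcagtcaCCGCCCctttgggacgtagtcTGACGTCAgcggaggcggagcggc
Ptma: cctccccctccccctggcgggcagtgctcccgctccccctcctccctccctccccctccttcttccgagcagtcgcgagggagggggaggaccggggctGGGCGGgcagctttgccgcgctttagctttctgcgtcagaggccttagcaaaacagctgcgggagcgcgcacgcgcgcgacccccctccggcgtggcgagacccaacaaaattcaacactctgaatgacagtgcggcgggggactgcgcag
Insig1: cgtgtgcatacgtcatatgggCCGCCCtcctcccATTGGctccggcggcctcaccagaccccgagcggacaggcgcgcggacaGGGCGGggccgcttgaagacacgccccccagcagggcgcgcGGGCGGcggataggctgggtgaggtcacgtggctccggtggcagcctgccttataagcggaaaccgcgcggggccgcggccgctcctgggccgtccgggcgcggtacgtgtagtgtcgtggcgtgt
All 4 hold at least 1 GC box, and Hypk holds 2, of which the nearer begins 27 bases before the start site. Mif alone of the 4 holds the cAMP response element letters, beginning 24 bases before the start site. That motif stands in 1.55% of all 32851 promoters of the table and in 3.2% of the 6647 that matched a tested gene. GC boxes stood in 9 of the 11 matched promoters of named genes higher in sIVF and in 8 of the 10 matched promoters of named genes lower in sIVF, against 58.8% of promoters of tested genes and 32.7% of all. The CCAAT box stood in 5 of 11 and 4 of 10, against 38.5% of promoters of tested genes. The sterol element letters stood in none of the 4 promoters shown, Insig1 included, and in 24 (0.0731%) of all promoters. A match is a description of the letters only, and its absence says only that these letters are not in this window.

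Replication histones, the DNA-packing proteins made during S phase, leaned lower in sIVF by value. Of 23 measured genes, 10 (43.5%) lay below IVF without overlap and 0 above, and 4 were lower and 0 higher at an unadjusted p under 0.05. Over all loci 21.1% lay below and 21.6% above IVF, and 5.65% were lower and 6.37% higher at an unadjusted p under 0.05. The shares of every list that follows are read beside these, with 1 limit. The share above IVF rose with level, while most of the lists were not matched for level. It was 27%, with 21.1% below, at loci with a mean of 5 FPKM or more. In the highest of 10 level classes it was 37%, with 23.9% below. A share above IVF of that size in a list of abundant genes is therefore no sign of a lean. The median log2 fold change of the replication histones was -0.75, against -0.02 over all loci. Their summed level was 603 and 809 FPKM in sIVF, against 1642 and 1462 FPKM in IVF, with 648 and 522 FPKM in WT. Most of this sum is Hist1h2ao, an H2A gene with 487 and 654 FPKM in sIVF, against 1335 and 1165 FPKM in IVF (log2 fold change -1.14, SE 0.19, adjusted p = 0.0766). Hist1h2ag, another H2A gene, had 55.9 and 80.8 FPKM in sIVF, against 158 and 196 FPKM in IVF. These genes are near-identical copies whose reads can be split between loci, so single members are uncertain, and a second locus listed as Hist1h2ao had a log2 fold change of -1.06. The mRNAs of replication histones mostly lack a polyA tail, and polyA RNA was the molecule measured.

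The replacement histone variants split. All 10 measured had no overlap between groups, 5 above and 5 below IVF, where the background is 21.6% and 21.1%, and the median log2 fold change was -0.15. H3f3b, which encodes the replacement histone H3.3, had 1867 and 1722 FPKM in sIVF, against 1156 and 1215 FPKM in IVF (log2 fold change 0.60, SE 0.12, adjusted p = 0.133). H2afz, the variant H2A.Z, had 1223 and 1309.9 FPKM in sIVF, against 1066 and 1166 FPKM in IVF, a gap of the same order as the spread within groups. With H2afj on the other side, the variants did not move as a group.

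Histone-binding and nucleosome-binding proteins split in the same way. Of 24 measured, 9 (37.5%) stood above and 6 (25%) below IVF without overlap. Ptma was the member of smallest p, and Set, a histone chaperone, had 1092 and 1063 FPKM in sIVF, against 695 and 897 FPKM in IVF. Hmgn2, a nucleosome-binding protein, stood the other way at 832 and 813 FPKM in sIVF, against 1121 and 1158 FPKM in IVF (log2 fold change -0.47, SE 0.13, adjusted p = 0.23).

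Among 27 Polycomb genes, which maintain gene silencing, 10 (37%) stood above and 4 (14.8%) below IVF without overlap, and 6 were higher and 2 lower with p under 0.05 before adjustment. Kdm6a, the demethylase that removes the Polycomb mark H3K27me3, had 17.7 and 19.1 FPKM in sIVF, against 4.18 and 7.31 FPKM in IVF. Cbx3, a heterochromatin protein of the H3K9 methylation list, had 2988 and 2989 FPKM in sIVF, against 1229 and 1968 FPKM in IVF, where the IVF libraries were far apart. Trim28, a co-repressor that recruits H3K9 methylation, had 9.34 and 8.09 FPKM in sIVF, against 26.8 and 19.3 FPKM in IVF. The H3K9 list of 23 genes, both of these included, had 2 members above and 5 below IVF without overlap. Usp22, the deubiquitinase of the SAGA co-activator, had 246 and 221 FPKM in sIVF, against 103 and 134 FPKM in IVF, and WT stood with IVF at 105 and 90.0 FPKM.

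Cytosolic ribosomal proteins, the protein parts of the ribosome, were lower in sIVF by count. Of 81 measured, 33 (40.7%) stood below and 9 (11.1%) above IVF without overlap, and 15 were lower and 4 higher at an unadjusted p under 0.05. The size was small, with a median of -0.17 on the log2 scale, and their summed level was 30587 and 28309 FPKM in sIVF, against 35787 and 34659 FPKM in IVF, with 29921 and 29065 FPKM in WT. Most are abundant genes, and in the top class of 10 equal classes of all loci by mean FPKM the shares ran the other way, with 37% above and 23.9% below IVF. They are also short transcripts, and with each library's trend with implied length removed the median of the list was -0.07. Rps29, a small-subunit protein, had 1928 and 1779 FPKM in sIVF, against 2520 and 2812 FPKM in IVF (log2 fold change -0.52, SE 0.11, adjusted p = 0.145). Rpl41, a very short ribosomal protein, had 3027 and 2440 FPKM in sIVF, against 4212 and 3807 FPKM in IVF. Ribosomal protein genes have many processed copies in the genome, and Actb, Ptma, Hmgn2, Tmsb10 and H3f3b have some too, so reads may be split between near-identical copies.

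Mitochondrial ribosomal proteins showed no such lean: of 75 measured, 17 (22.7%) stood above and 15 (20%) below IVF. The pair of smallest p was lower by value, Mrpl34 with 221 and 203 FPKM in sIVF, against 351 and 299 FPKM in IVF, and Mrps24 with 93.9 and 115 FPKM in sIVF, against 222 and 155 FPKM in IVF. Ribosome assembly and rRNA synthesis genes had 19 of 60 (31.7%) below and 11 (18.3%) above IVF and a median of -0.21, which was -0.01 without IVF replicate 1 and -0.12 without sIVF replicate 2. Nhp2l1, a protein of the small nucleolar and spliceosomal particles, had 969.8 and 903 FPKM in sIVF, against 1309 and 1196 FPKM in IVF.

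Translation initiation factors had members on both sides. Of 43, 12 (27.9%) stood above and 10 (23.3%) below IVF, with a median of 0.12. Eif4a1, the RNA helicase of the cap-binding complex, had 100.5 and 105 FPKM in sIVF, against 43.6 and 39.2 FPKM in IVF, and WT matched sIVF at 101 and 104 FPKM (log2 fold change 1.30, SE 0.22, adjusted p = 0.086). Eif4e, the cap-binding protein, had 269 and 286 FPKM in sIVF, against 158 and 148 FPKM in IVF (log2 fold change 0.85, SE 0.17, adjusted p = 0.133). Eif1a, a start codon scanning factor, had 69.7 and 48.9 FPKM in sIVF, against 20.7 and 27.5 FPKM in IVF, and it belongs to a family of similar copies active at this stage.

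RNA splicing and RNA modification genes differed in their lean. Of 47 spliceosome genes, 17 (36.2%) stood below and 7 (14.9%) above IVF, with a median of -0.16. Its most abundant member, Snrpe, nonetheless had 997 and 984 FPKM in sIVF, against 722 and 765 FPKM in IVF, while Snrpf, another core Sm protein, had 222 and 272 FPKM in sIVF, against 442 and 369.7 FPKM in IVF. Of 19 genes of the m6A pathway, which writes and reads methyl marks on mRNA, 7 (36.8%) stood above and 1 (5.26%) below IVF, with a median of 0.28. Wtap, the adaptor of the m6A writer, had 1728 and 2103 FPKM in sIVF, against 1131 and 1383 FPKM in IVF, with 2171 and 2485 FPKM in WT (log2 fold change 0.61, SE 0.15, adjusted p = 0.201). Genes of RNA polymerase II and its general factors stood on both sides, 11 (33.3%) above and 7 (21.2%) below IVF of 33. Taf9, a subunit of TFIID, had 1287 and 1071 FPKM in sIVF, against 731 and 815 FPKM in IVF, and its locus overlaps Ak6. Polr2l, another subunit shared by the polymerases, had 45.4 and 54.8 FPKM in sIVF, against 114 and 104 FPKM in IVF.

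Small medians changed sign with the scaling. After upper-quartile scaling the median was -0.04 for mitochondrial ribosomal proteins (0.05 as deposited), -0.06 for 2-cell stage genes (0.02 as deposited), -0.06 for maternal oocyte genes (0.03 as deposited) and -0.08 for RNA polymerase II genes (0.01 as deposited), beside -0.10 over all loci. The medians of replication histones, cytosolic ribosomal proteins, both respiratory lists and the spliceosome stayed below 0, and those of the m6A and actin lists above 0, with quantile normalization, upper-quartile scaling or length trends removed. Leaving out 1 library changed the sign of the median in 23 of 41 lists, among them the spliceosome, at 0.01 without sIVF replicate 1. The median of replication histones was -0.39 without IVF replicate 1, and that of cytosolic ribosomal proteins lay between -0.18 and -0.13. Complex I stood at -0.08 without sIVF replicate 2, -0.13 without IVF replicate 2 and -0.41 without sIVF replicate 1, and complexes II to V at -0.03 without sIVF replicate 2 and -0.37 without IVF replicate 2. The m6A list lay between 0.20 and 0.32. The signs of the sterol, acetyltransferase, translation initiation, mitochondrial ribosomal, 2-cell stage, maternal oocyte, pluripotency, RNA polymerase II and anaphase-promoting complex medians also changed without 1 library.

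**Figure D3:**
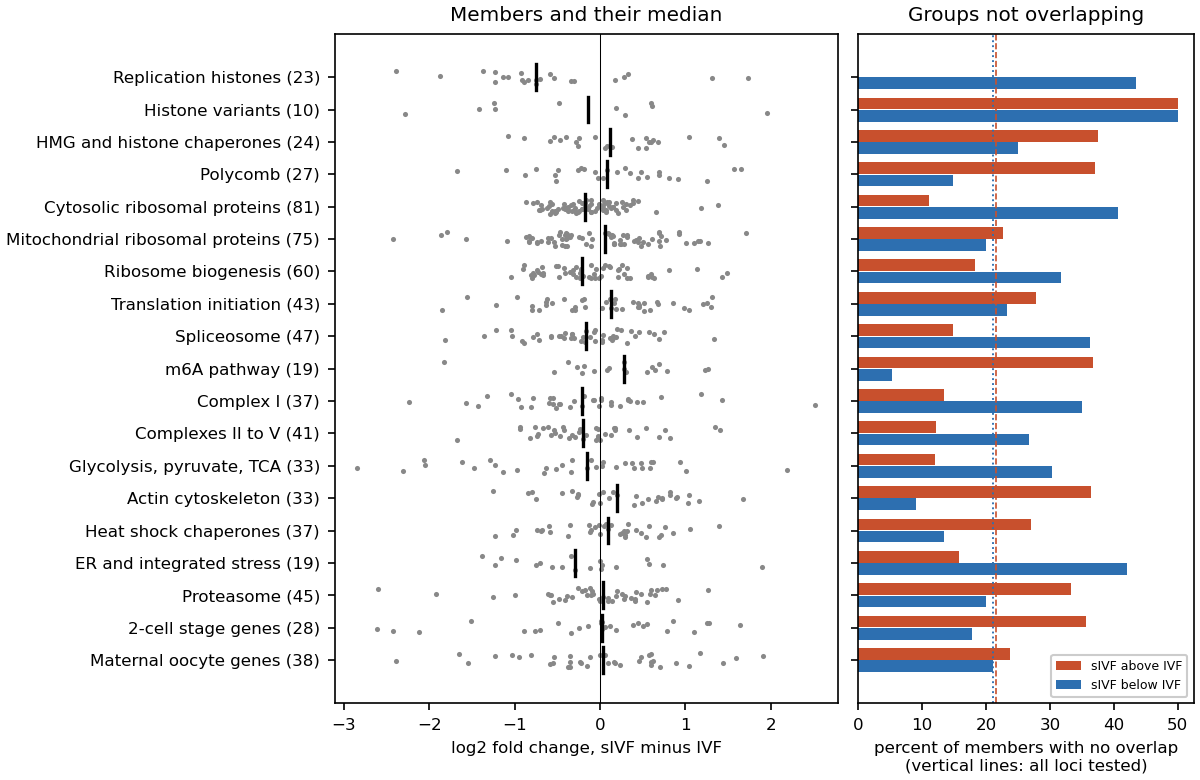
Left, log2 fold change of sIVF over IVF (x) of every measured member of 19 gene lists (points, number of members in brackets), with the list's median as a black bar; right, percent of members whose sIVF libraries lie above (red) or below (blue) both IVF libraries, with vertical lines at 21.6% (dashed, above) and 21.1% (dotted, below) for all loci. Replication histones have 43.5% below and 0 above, cytosolic ribosomal proteins 40.7% below, and the m6A and actin lists have 5.26% and 9.09% below.

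Of the respiratory chain, which makes ATP in mitochondria, complex I leaned lower in sIVF by count. Of 37 complex I subunits, 13 (35.1%) stood below and 5 (13.5%) above IVF, 9 were lower and 2 higher at an unadjusted p under 0.05, and the median was -0.21. The summed level was 3159 and 2841 FPKM in sIVF, against 3956 and 3861 FPKM in IVF, with 2703 and 2618 FPKM in WT. Ndufa6 had 50.6 and 87.9 FPKM in sIVF, against 212 and 188 FPKM in IVF (log2 fold change -1.57, SE 0.32, adjusted p = 0.135). Ndufa13 had 76.8 and 74.4 FPKM in sIVF, against 151 and 164 FPKM in IVF. Both are accessory subunits of complex I. Their sIVF and IVF libraries lay well apart, which their choice as the members of smallest p favours.

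Complexes II to V had 11 of 41 (26.8%) below and 5 (12.2%) above IVF, against 21.1% and 21.6% over all loci. The share below was thus near that of all loci, and the median was -0.20. Uqcr10, of complex III, had 416 and 397 FPKM in sIVF, against 650.1 and 695 FPKM in IVF (log2 fold change -0.73, SE 0.14, adjusted p = 0.133). Cox8a, of complex IV, had 481 and 485 FPKM in sIVF, against 1131 and 754 FPKM in IVF. Atp5g1, of the ATP synthase ring, had 1578 and 1595 FPKM in sIVF, against 2119 and 1952 FPKM in IVF, a ratio of IVF over sIVF of only 1.28. With each library's length trend removed, the median of complexes II to V was -0.08 and that of complex I was -0.14.

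Enzymes of glycolysis, pyruvate use and the citric acid cycle had 10 of 33 (30.3%) below and 4 (12.1%) above IVF, with a median of -0.16. Galk1, which phosphorylates galactose, had 1.59 and 1.87 FPKM in sIVF, against 16.3 and 9.52 FPKM in IVF, with 15.9 and 21.4 FPKM in WT. Idh3g, a subunit of isocitrate dehydrogenase, had 22.1 and 12.2 FPKM in sIVF, against 66.8 and 33.7 FPKM in IVF. This median was sensitive to single libraries: it was 0.03 without IVF replicate 1, 0.05 without sIVF replicate 2 and -0.65 without IVF replicate 2. G6pdx, which feeds the pentose phosphate pathway, had 7.02 and 6.81 FPKM in sIVF, against 1.92 and 0.794 FPKM in IVF.

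Of 33 genes of the actin cytoskeleton, 12 (36.4%) stood above and 3 (9.09%) below IVF, 8 were higher and 2 lower with p under 0.05 before adjustment, and the median was 0.20. Besides Actb and Tmsb10, Actr2, a core subunit of the branching Arp2/3 complex, had 298 and 345 FPKM in sIVF, against 181 and 258 FPKM in IVF. The median was 0.03 without IVF replicate 2. Tubulin and microtubule genes showed 2 of 19 on either side. Tubb5, a beta-tubulin, had 83.3 and 106 FPKM in sIVF, against 64.2 and 35.3 FPKM in IVF.

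Genes of protein folding and stress stood on both sides. Of 37 heat shock chaperones, 10 (27%) stood above and 5 (13.5%) below IVF, and the median was 0.10. With p under 0.05 before adjustment, 4 were higher and 0 lower (10.8%, against 12% over all loci). Hsp90aa1, the inducible cytosolic Hsp90, had 266 and 286 FPKM in sIVF, against 205 and 191 FPKM in IVF. Dnajb6, an Hsp40 co-chaperone, had 116 and 167 FPKM in sIVF, against 75.4 and 77.3 FPKM in IVF. Of 19 genes of the endoplasmic reticulum and integrated stress response, 8 (42.1%) stood below and 3 (15.8%) above IVF, with a median of -0.29. Sdf2l1, a stress-induced reticulum protein, had 18.2 and 25.8 FPKM in sIVF, against 79.4 and 42.4 FPKM in IVF, while Canx, a folding chaperone for glycoproteins, had 172 and 169.6 FPKM in sIVF, against 107 and 122 FPKM in IVF.

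Targets of p53 were mostly at low levels. Of 18 measured, 2 (11.1%) stood above and 4 (22.2%) below IVF. Cdkn1a, the cell cycle inhibitor p21, had 17.8 and 11.6 FPKM in sIVF, against 27.4 and 37.8 FPKM in IVF, and Gadd45b, a stress sensor, had 6.85 and 3.86 FPKM in sIVF, against 16.3 and 14.8 FPKM in IVF. Neither reached the adjusted threshold (adjusted p of 0.299 and 0.411), and WT stood near sIVF in Cdkn1a at 15.7 and 16.7 FPKM. In the list of DNA damage and repair, 7 of 36 (19.4%) stood above and 8 (22.2%) below IVF. Msh6, of mismatch repair, had 3.002 and 2.95 FPKM in sIVF, against 9.94 and 9.86 FPKM in IVF.

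Fzr1, the gene in the series' title, had 0.239 and 2.00 FPKM in sIVF, against 7.69 and 10.1 FPKM in IVF, with 0.117 and 0.233 FPKM in WT. The sIVF libraries lay below both IVF libraries, and the difference did not pass (log2 fold change -2.35, SE 0.70, adjusted p = 0.25). Around it, the anaphase-promoting complex and its mitotic substrates had 12 of 37 (32.4%) below and 6 (16.2%) above IVF, with a median of -0.11. Anapc15, a subunit that helps to turn over the mitotic checkpoint complex, had 161 and 156 FPKM in sIVF, against 309.97 and 285 FPKM in IVF (log2 fold change -0.90, SE 0.17, adjusted p = 0.124). Pttg1, or securin, which holds sister chromatids together until the complex destroys it, had 1581 and 1554 FPKM in sIVF, against 1159.8 and 1288 FPKM in IVF. Gmnn, or geminin, an inhibitor of replication licensing, had 887 and 782 FPKM in sIVF, against 1041 and 951 FPKM in IVF.

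DNA replication genes had 14 of 50 (28%) above and 9 (18%) below IVF, near the 21.6% and 21.1% over all loci, and a median of 0.18, which lay between 0.10 and 0.25 across the other settings tried. Orc4, of the origin recognition complex, had 160.2 and 211 FPKM in sIVF, against 82.2 and 96.8 FPKM in IVF (log2 fold change 1.03, SE 0.24, adjusted p = 0.165). Proteasome subunits had 15 of 45 (33.3%) above and 9 (20%) below IVF and a median of 0.03. Those of smallest p were lower: Psmc4, of the regulatory ATPase ring, had 24.2 and 23.5 FPKM in sIVF, against 64.2 and 53.002 FPKM in IVF. Psmb10, an immunoproteasome subunit, had 9.65 and 21.4 FPKM in sIVF, against 48.7 and 68.3 FPKM in IVF.

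Genes that mark the 2-cell stage had 10 of 28 (35.7%) above and 5 (17.9%) below IVF, with a median of 0.02. Hesx1, a homeobox repressor, was listed at 0 in both sIVF libraries, against 8.89 and 2.79 FPKM in IVF and 30.2 and 33.3 FPKM in WT. Dppa2, an activator of the zygotic programme, had 238 and 183 FPKM in sIVF, against 152 and 142 FPKM in IVF. The 38 maternal oocyte genes measured had 9 (23.7%) above and 8 (21.1%) below IVF. Their most abundant member Dppa3, which protects maternal DNA methylation, had 6020.3 and 5355 FPKM in sIVF, against 3891 and 4379 FPKM in IVF, with 5400.5 and 5611 FPKM in WT (log2 fold change 0.46, SE 0.11, adjusted p = 0.165). Spin1, a reader of histone methylation stored in the egg, had 2208 and 2222 FPKM in sIVF, against 1558 and 1627 FPKM in IVF.

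Genes of maternal RNA storage and clearance had 9 of 35 (25.7%) on each side. With p under 0.05 before adjustment, 3 were higher and 0 lower (8.57%, against 12% over all loci). Zar1l, an RNA-binding protein of the egg, had 23.7 and 16.6 FPKM in sIVF, against 3.35 and 5.83 FPKM in IVF. Rqcd1, a subunit of the CCR4-NOT deadenylase, had 32.0 and 20.1 FPKM in sIVF, against 10.8 and 10.9 FPKM in IVF. Ybx1, which packs stored mRNA, had 220.03 and 212 FPKM in sIVF, against 164 and 170.4 FPKM in IVF. The subcortical maternal complex, with 8 genes measured, had 1 above and 2 below IVF, and Khdc3, one of its parts, stood near 0 with 0.278 and 0 FPKM in sIVF, against 5.205 and 1.75 FPKM in IVF.

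Pluripotency factors had 8 of 21 (38.1%) above and 5 (23.8%) below IVF, with a median of 0.09. The most abundant member, Dppa5a, an RNA-binding protein of pluripotent cells, had 4872 and 4929 FPKM in sIVF, against 4239 and 4523 FPKM in IVF, with 4598 and 4169.98 FPKM in WT, and its log2 fold change of 0.16 was -0.30 after quantile normalization. Sall4, a zinc-finger factor needed in the early embryo, had 199.9 and 189.8 FPKM in sIVF, against 119 and 119 FPKM in IVF (log2 fold change 0.71, SE 0.20, adjusted p = 0.23). Imprinted genes had 4 of 16 (25%) above and 3 (18.8%) below IVF. Phlda2, a maternally expressed growth restrictor of the placenta, had 154 and 187 FPKM in sIVF, against 348 and 333 FPKM in IVF, with 252 and 200.02 FPKM in WT (log2 fold change -1.004, SE 0.20, adjusted p = 0.133). Cdkn1c, a maternally expressed cell cycle inhibitor, had 0.628 and 1.09 FPKM in sIVF, against 6.26 and 7.53 FPKM in IVF. The machinery of DNA methylation and demethylation had 4 of 15 (26.7%) above and 6 (40%) below IVF.

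Loci were also divided by stage, from the WT 2-cell libraries and the Control blastocyst libraries (embryonic day 4.0) of the same series, none of which enters the sIVF and IVF values. The 890 loci at least 4-fold higher in WT 2-cell embryos than in blastocysts had a median of 0.18 on the log2 scale, with 34.7% above and 16.5% below IVF without overlap. The 5825 loci with a smaller stage difference had a median of -0.01. The 1584 loci at least 4-fold higher in blastocysts had a median of -0.19, with 13.6% above and 22.9% below IVF. The log2 fold change was above 0 at 59.8% of the 2-cell class and 42.4% of the blastocyst class, with no test of this difference, while the list of 2-cell stage genes had a median of 0.02. After quantile normalization the medians were 0.16, 0.03 and -0.12.

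Level and length were compared in the same way. In the lowest of 10 equal classes of mean FPKM, 12.5% stood above and 21.7% below IVF, and in the highest class 37% stood above and 23.9% below. Loci of the later stage are often low at the 2-cell stage, so the stage classes and the level classes share members, and their parts were not tested. By the length implied by the deposited bounds, the shortest of 10 classes had a median of -0.13. The other 9 lay between -0.06 and 0.05. This relative measure cannot be taken as transcript length at every locus. For Wtap it was 246, and the implied fragments stayed between 2233 and 2289 while FPKM ran from 1131 to 2103. The setting with length trends removed rests on the same measure.

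**Figure D4:**
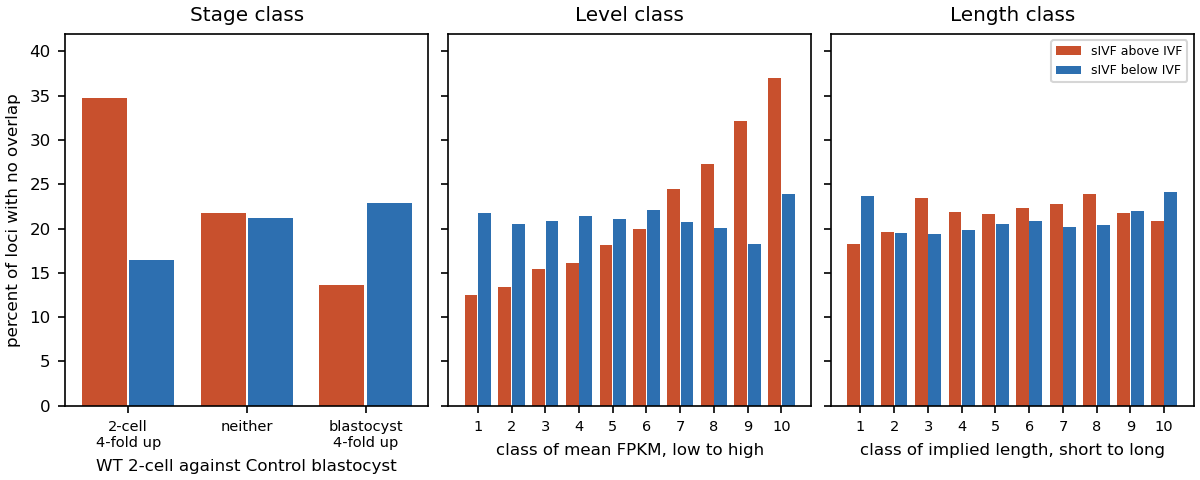
Percent of loci whose sIVF libraries lie above (red) or below (blue) both IVF libraries, by stage class (left), by class of mean FPKM from low to high (middle) and by class of implied transcript length from short to long (right). The share above IVF grows with the level up to 37% in the highest class and is 34.7% in the 2-cell class, and the length classes differ little.

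A few genes were listed at 0 in both libraries of a group and at 5 FPKM or more in both of the other. Of 4 such loci at 0 in IVF, Id1, an inhibitor of differentiation factors, had 10.2 and 8.02 FPKM in sIVF, from 86.0 and 78.0 implied fragments. Lipt2, of lipoic acid synthesis, had 8.91 and 8.65 FPKM in sIVF, and Cutc, of copper handling, had 9.15 and 5.27 FPKM. All 3 had 1 WT library at 0 or near it. Of 9 loci at 0 in sIVF, Tsga8, a germ-cell gene inside the Dmd locus, had 26.6 and 12.3 FPKM in IVF, and the sperm acrosome gene Iqcf1 had 12.9 and 9.58 FPKM. Sct, the hormone secretin, had 11.6 and 5.62 FPKM in IVF, Rcn3, a reticulum calcium-binding protein, had 6.51 and 9.43 FPKM, and Creb3l4, a transcription factor of the reticulum membrane, had 5.56 and 8.14 FPKM. Among the loci tested, 35 were at 0 in both IVF libraries and above 0 in both sIVF libraries, and 98 the reverse, and IVF replicate 1 was the library with most loci above 0.

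Most markers of other cells were at or near 0, with exceptions given here. The fibroblast list summed to 0 and 0 FPKM in sIVF, against 0.377 and 1.67 FPKM in IVF, and the blood list to 5.03 and 6.1 FPKM in sIVF, against 4.72 and 4.09 FPKM in IVF. The cumulus and granulosa list, for cells that surround the egg, summed to 12.6 and 15.8 FPKM in sIVF, against 17.4 and 11.1 FPKM in IVF, and the sperm list to 15.6 and 22.5 FPKM in sIVF, against 13.5 and 13.4 FPKM in IVF. The oviduct list summed to 102 and 101 FPKM in sIVF, against 142 and 111 FPKM in IVF, nearly all of it Epcam, an adhesion gene of many epithelia. Has2 and Inha of cumulus and granulosa cells and the protamine gene Prm1 of sperm were at 0 in all 6 libraries. Other members were not: Nr5a2, a nuclear receptor also used by the embryo, had 11.2 and 10.2 FPKM in sIVF, against 8.46 and 4.20 FPKM in IVF, and Amhr2, the receptor of anti-Müllerian hormone, had 1.18 and 4.96 FPKM in sIVF, against 8.17 and 3.45 FPKM in IVF. Of the sperm list, Ldhc, a germ-cell lactate dehydrogenase, had 3.17 and 17.6 FPKM in sIVF, against 2.37 and 13.2 FPKM in IVF. Pgk2, a testis glycolytic enzyme, had 7.21 and 1.34 FPKM in sIVF, against 0 and 0 FPKM in IVF, and Odf2, of sperm tails and centrioles, had 5.10 and 2.01 FPKM in sIVF, against 7.11 and 0.0739 FPKM in IVF. The part of other cells in the results was not tested. Common reference genes were not all level. Of 18 measured, 5 (27.8%) stood above and 7 (38.9%) below IVF without overlap, and the others overlapped. Besides Actb, the ubiquitin gene Ubb had 1006 and 968 FPKM in sIVF, against 1589 and 1367 FPKM in IVF. Hprt, of purine salvage, had 664 and 527 FPKM in sIVF, against 356 and 461 FPKM in IVF. Rpl13a was among those that overlapped, with 131.9 and 102.6 FPKM in sIVF, against 129.9 and 134.7 FPKM in IVF. Of egg and 2-cell genes, Dppa3, Spin1 and Dppa2, among the most abundant of their lists, were high in all 6 libraries. Others were not, and Hesx1 and Khdc3 were at or near 0 in both sIVF libraries. Of the 43 maternal oocyte genes listed, measured or not, 33 to 39 reached 1 FPKM in a library.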

How the data were processed

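For every gene locus the authors deposited FPKM and a lower and an upper bound, per the file headers. Tools are named without roles in the submitters' processing notes, among them Cufflinks 2.2.1 and HISAT2 2.1.0, with mm9 as the build. Per the labels' protocols, cDNA was made from cell lysates, amplified and fragmented. Whether strand was used in counting is not given in the sources used here, and 31 of the 139 named genes tracked have a locus that overlaps another. The locus starts count from 0 in the files and from 1 here. All values were used as deposited, and 1 value that the file gives as failed (Acsl4, WT replicate 2) was kept.

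Values of loci that reached a mean of 1 FPKM over the 4 libraries were put on a log2(FPKM + 1) scale and fitted by limma 3.58.1 under R 4.3.3 (eBayes, intensity trend) over 6 libraries, which leaves 3 residual degrees of freedom. Fold changes on this scale understate those of low genes. Ratios are of mean FPKM. Implied counts under 40 were whole, to within 0.05, in only 46.4% to 48.2% of cases, and a count model was therefore not used. Depth and length were read from the bounds as 2 SD of a Poisson count, and the length is on a relative scale, not from an annotation. The fit was also run on simulated data for this comparison (8299 loci), with 100 loci changed 2-fold and 100 changed 4-fold. Only loci averaging 5 FPKM or more were given a change. Of these changed loci, the fit called 1% at 2-fold and 12% at 4-fold, with 66% and 84% at an unadjusted p under 0.05. It made 0 false calls. The rates do not cover changes at loci below 5 FPKM, where the median SE was 0.77.

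The members, the 42 gene lists and the tests were chosen with earlier results of these data known, so lists are described by counts and medians with no test. Named genes follow a rule: up to 12 a direction of smallest p with a group mean of at least 5 FPKM and no overlap, loci at 0 in 1 group, the 2 members of smallest p and the 2 most abundant of each list, and Fzr1. The rule names 140 genes, of which 1 is not reported here, 100 are described singly and 39 by count. Replicate numbers did not pair libraries (correlation of deviations -0.002 between sIVF and IVF).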

Additional observations from a re-analysis of the deposited data

How the results depend on the processing

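Calls depended on the setting, and the cause was not tested beyond what a setting does by construction (a stricter filter tests fewer and more abundant loci). limma called 33 loci with a minimum mean of 5 FPKM (24 higher, 9 lower), 13 after quantile normalization (8 higher, 5 lower), 9 with length trends removed (8 higher, 1 lower), 1 after upper-quartile scaling (lower), and 0 under the main setting and the 14 other alternatives. In all 33 loci were called under at least 1 of the 18 alternatives and 7 under 3 of them, among them Actb, Ptma, Rrn3, Ptp4a1, Golt1b and Hypk. The main setting with a 2-fold minimum added gave 0.

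Counts at an unadjusted p under 0.05 stayed within 1.5 times the main 998 in every alternative run, though the number of loci tested differed. They were 735 of 4690 loci with the filter of 5 FPKM and 1301 of 14864 without a filter. The main setting had 998 of 8299 (12%), so the share changed with the filter. Leaving out 1 library at a time gave 816 to 993 such loci and 0 calls throughout. Groups did not overlap at 2255 of 4690 loci with the filter of 5 FPKM. With a replicate block the calls were 0 and the unadjusted count 1048. Same-numbered libraries did not deviate together (correlation -0.002 for sIVF and IVF), so the numbers are taken not to pair.

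The log2 fold change changed sign under at least 1 alternative in 17 of the 139 named genes tracked, 3 of them among the 100 described singly (Dppa5a, Ldhc and Odf2), and the cause was not tested. After upper-quartile scaling it was -0.04 for Dppa4 (0.05 as deposited), -0.04 for Tubb4b (0.05), -0.02 for Eif6 (0.07) and -0.06 for Pcgf1 (0.04). After quantile normalization it was -0.05 for Tubb4b, -0.06 for Pcgf1 and -0.30 for Dppa5a (0.16), and with length trends removed 0.05 for Nhp2 (-0.13). Leaving out 1 library at a time changed the sign of 16 genes, whose values ran as follows (as deposited in brackets): Dppa4 -0.24 to 0.35 (0.05), Zbed3 -0.06 to 0.72 (0.33), Pan3 -0.25 to 0.04 (-0.10), Tubb4b -0.30 to 0.41 (0.05), Nhp2 -0.36 to 0.10 (-0.13), Eif6 -0.37 to 0.51 (0.07), Psmb2 -0.91 to 0.48 (-0.21), Mpc2 -0.34 to 0.03 (-0.16), Bax -0.96 to 0.39 (-0.28), Tigar -0.14 to 0.58 (0.22), Ercc1 -1.48 to 0.35 (-0.57), Pcgf1 -0.22 to 0.30 (0.04), Odf2 -0.92 to 2.00 (0.54), Ldhc -0.73 to 1.43 (0.35), Ccdc153 -1.78 to 0.49 (-0.64) and Hba-a1 -2.42 to 0.15 (-1.14). Of 762 medians of lists and classes under alternatives, 55 moved by more than the spread between libraries. The 762 include settings that could not move a median. These change only the spread estimate, the library weights, the replicate block or the WT libraries, or drop the filter on low values altogether. The other filters change which members are measured and did move medians. At a minimum mean of 5 FPKM the actin median was 0.41 (0.20 as deposited). Because of the settings that could not move a median, the count of 55 is no measure of how stable the medians are. With 2 libraries a group the precision at low loci is limited, with a median SE of 0.77 below 5 FPKM, against 0.21 at 100 FPKM or more. The parts of depth and of values listed at 0 in this were not tested.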

Other observations

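A few gene groups fall outside the comparison's main lines. Deubiquitinases and SAGA subunits had 9 of 27 (33.3%) above and 5 (18.5%) below IVF without overlap, with a median log2 fold change of 0.21, which was 0.03 without IVF replicate 2 and 0.08 without sIVF replicate 1. Antioxidant, glutathione and ferritin genes had 5 of 29 (17.2%) above and 6 (20.7%) below, with a median of 0.07. Genes of the early blastocyst epithelium had 0 of 9 above and 3 (33.3%) below, and their summed level of 50.5 and 50.4 FPKM in sIVF, against 114 and 88.3 FPKM in IVF, included Aqp11 and Tfap2c, a transcription factor of the trophoblast lineage with 13.8 and 10.5 FPKM in sIVF, against 18.8 and 12.6 FPKM in IVF. The N-terminal acetyltransferases summed to 2310 and 1985 FPKM in sIVF, against 4086 and 4334 FPKM in IVF, nearly all of it Hypk. Of the genes named by rule, 39 are not described singly: 10 lay above and 13 below IVF without overlap, and their log2 fold changes ran from -2.52 (Tuba3b) to 1.23 (Rpa3).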
